A study of Mus musculus with 4 samples.

Results

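The 7 genes described here are 7 of the MHC class II antigen presentation genes of the mouse, taken by symbol from the 32285 genes of a testis single-cell count matrix. They are H2-Aa (ENSMUSG00000036594), H2-Ab1 (ENSMUSG00000073421), H2-Eb1 (ENSMUSG00000060586), Cd74 (ENSMUSG00000024610), H2-DMa (ENSMUSG00000037649), H2-DMb1 (ENSMUSG00000079547) and Ciita (ENSMUSG00000022504). The series holds 4 droplet single-cell libraries of mouse testis made with a 3' kit: control and Znhit1 knockout, each at days 16 and 35 after birth, with 1 library a group. The study asked what depletion of ZNHIT1, a chromatin factor, does in germ cells. The counts analysed are those of the day 35 knockout, and the other 3 libraries were not analysed here, so nothing below compares genotypes or ages. The strain, the deleting allele, the number of animals in the library and whether testis macrophages carry the deletion are not given in the sources used here.

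Of these genes, 5 lie in the MHC of chromosome 17. In mouse build GRCm38 (mm10) their annotated spans are chr17:34119541-34139101 for H2-DMa, chr17:34153072-34160230 for H2-DMb1, chr17:34257689-34269419 for H2-Ab1, chr17:34282744-34287823 for H2-Aa on the minus strand and chr17:34305867-34316674 for H2-Eb1. Ciita lies at chr16:10480059-10528418 and Cd74 at chr18:60803848-60812652, and all but H2-Aa are on the plus strand. All 7 are protein coding. Parts of H2-DMa overlap Brd2 on the opposite strand, part of H2-Eb1 overlaps Gm20513 and part of Ciita overlaps Dexi. The sources used here do not say whether strand was used in counting, so whether reads of such a pair were kept apart is not known here. H2-DMb1 has a near copy, H2-DMb2, and its counts are uncertain to that extent.

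MHC class II molecules sit on the surface of antigen-presenting cells and show peptides from endosomes to CD4 T cells. H2-Aa and H2-Ab1 encode the alpha and beta chains of I-A, and H2-Eb1 encodes the beta chain of I-E. Cd74 encodes the invariant chain, which escorts new class II dimers to endosomes. H2-DMa and H2-DMb1 encode the dimer that exchanges the invariant chain's remnant for peptide, and Ciita encodes the coactivator that switches the set on. In the testis, class II is known as a feature of a subset of macrophages, while meiotic germ cells are shielded behind the Sertoli cell barrier.

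Class II promoters are known for a shared module in which an X box, bound by the RFX complex, stands upstream of a Y box, bound by NF-Y. The RefSeq table of promoter windows on GRCm38.p6 held 4 of the 7 members. The 150 bases before the start of the genes for an alpha chain and a beta chain are shown because both carry the module. Both strands were searched for the X-box core as GNAAC and the Y box as TGATTGG, and capitals mark the pair found on the gene's strand; each window also held 1 GNAAC on the other strand, left in lower case. The H2-Aa window is chr17:34287824-34287973 on the minus strand and the H2-Eb1 window is chr17:34305717-34305866 on the plus strand.
H2-Aa: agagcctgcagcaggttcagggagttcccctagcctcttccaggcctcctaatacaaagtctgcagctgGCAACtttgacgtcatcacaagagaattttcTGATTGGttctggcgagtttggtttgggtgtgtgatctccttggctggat
H2-Eb1: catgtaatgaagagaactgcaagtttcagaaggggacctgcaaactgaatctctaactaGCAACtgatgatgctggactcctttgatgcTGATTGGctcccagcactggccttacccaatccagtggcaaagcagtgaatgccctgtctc
The X-box core began 81 bases before the start of H2-Aa and 91 before that of H2-Eb1, and the Y box began 31 and 30 bases further on. The H2-DMb1 window, chr17:34153041-34153190, held the same order at a distance of 31 bases, with the core GTAAC. The windows of H2-DMa, chr17:34122682-34122831 and chr17:34125368-34125517, held no such pair. Both lie inside the annotated span of H2-DMa, so they do not cover the bases before its annotated start. The H2-DMb1 window also overlaps the annotated span of its gene. Over all 32851 windows of the same length, 61.2% held GNAAC, 5.71% held TGATTGG and 0.429% held the pair in this order 20 to 45 bases apart. The motif letters and the distance were chosen with the members' windows in view, so these shares describe the letters only.

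The library held 15306 barcodes and 72459160 unique molecular identifiers (UMIs), each marking 1 captured molecule, with 500 to 87246 UMIs a barcode. After filters on depth, mitochondrial UMIs and doublets, 7886 cells with a median of 4616 UMIs were left. Of these, 3277 were somatic-like, 4397 were germ-cell-like and 212 were unnamed. Classes were named by marker lists, and the 7 members and the listed genes took no part in the clustering. Of the barcodes, 57 to 81 also stood in the list of another library of the series. Znhit1 stood at 2.48 CPM (UMIs of a gene per 1000000 UMIs of a class; 80 UMIs) in germ-cell-like cells and 15.7 CPM (232 UMIs) in somatic-like cells other than macrophages. A 3' tag can lie outside a deleted part, so these levels do not check the label.

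Class II RNA was concentrated in macrophages. The 449 macrophage-like cells, 5.69% of the cells used, had a summed level of the 7 genes of 5032 CPM (95% exact Poisson interval 4915 to 5150; 7071 UMIs). The 2828 other somatic-like cells had 34.1 CPM (31.2 to 37.3; 504 UMIs). The ratio was 147 (95% exact conditional binomial interval 135 to 162). There is 1 library, so no test across samples was possible, and all intervals cover counting error only. This level depends on the naming: when immune cells were not clustered a second time, the class II-rich cells stayed in a mixed cluster and the 320 remaining macrophage-like cells had 440 CPM, 12.9-fold the other somatic-like cells. As a mean over cells, which gives shallow and deep cells equal weight, the level was 7987 CPM.

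Among the other somatic types the summed level lay between 20.9 and 131 CPM, beside 35.3 CPM (33.2 to 37.4; 1136 UMIs) in germ-cell-like cells. Leydig-like cells, the androgen producers of the interstitium, had 20.9 CPM (17.95 to 24.1; 985 cells). Peritubular myoid or pericyte-like cells had 27.7 CPM (21.5 to 35.2; 676 cells), endothelial-like cells 30.4 CPM (13.9 to 57.8; 70 cells) and stroma-like cells 42.0 CPM (27.2 to 62.0; 234 cells). These neighbours in the order had overlapping intervals. Sertoli-like cells, the nurse cells of the tubule, had 55.6 CPM (45.2 to 67.7; 201 cells). A second Sertoli-like cluster of 647 shallow cells, with a median of 1241 UMIs against 8198, had 131 CPM (109 to 156). In that shallow cluster 26.4% of cells had a UMI of C1qa, C1qb or C1qc, complement genes of macrophages, against 9.40% to 17.9% in the other non-immune somatic types; the part of this in its class II level was not tested. The 15 T or NK lymphocyte-like cells gave a single class II UMI.

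**Figure D1:**
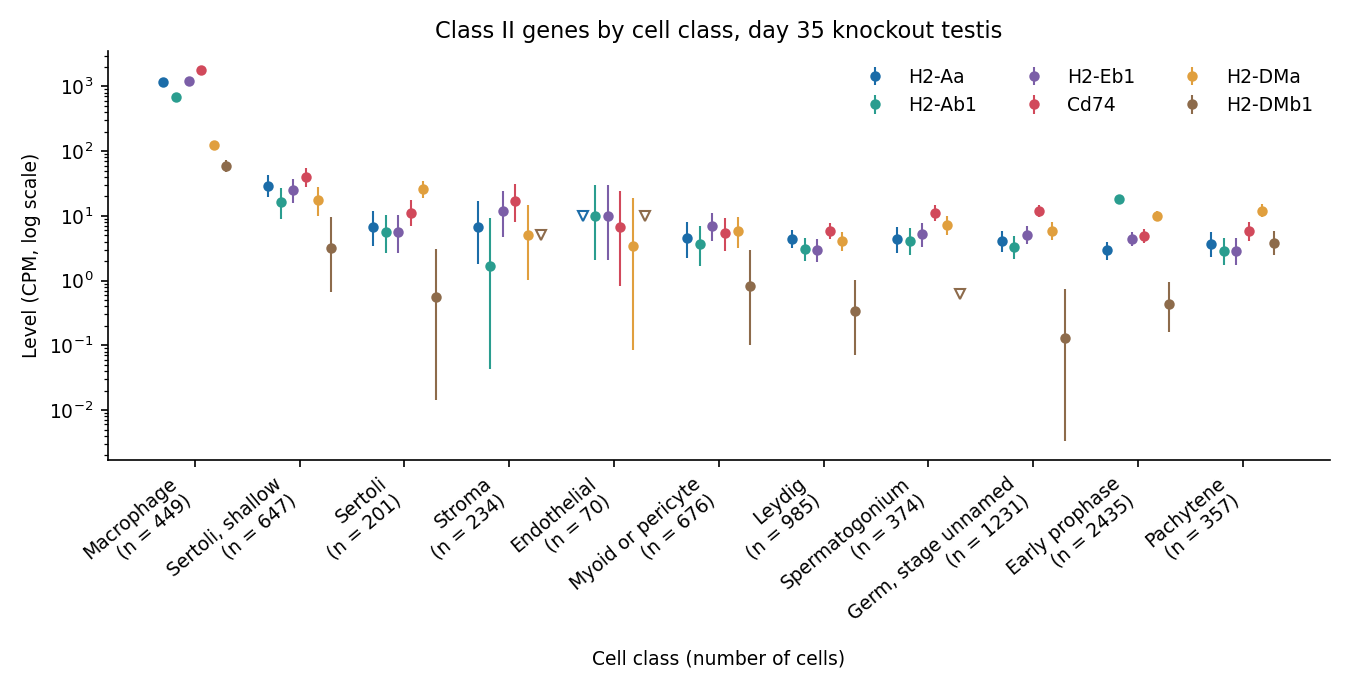
Level of 6 class II genes in each cell class (CPM, log scale), with exact Poisson 95% intervals that cover counting error only. Open triangles stand at 3 UMIs for a gene with 0 UMIs in a class, and Ciita and the 15 lymphocyte-like cells are not drawn. Macrophage-like cells stand above every other class for each gene, H2-DMa is raised in Sertoli-like cells relative to the other genes there, and H2-Ab1 is raised in early-prophase-like cells.

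Each of the 7 genes had its highest level in macrophage-like cells. These cells held 88.6% of the H2-Aa UMIs of all cells used, 88.0% of H2-Eb1, 86.6% of Cd74, 71.9% of H2-Ab1, 67.5% of H2-DMb1 and 29.7% of H2-DMa. Cd74 stood at 1768 CPM in macrophage-like cells and 9.01 CPM in the other somatic-like cells, a ratio of 196 (165 to 235). H2-Eb1 stood at 1218 and 5.83 CPM (ratio 209; 168 to 263), and H2-Aa at 1173 and 6.37 CPM (ratio 184; 150 to 229). H2-Ab1, the partner of H2-Aa, stood at 683 and 4.40 CPM (ratio 155; 121 to 203). The 4 genes for surface chains and the invariant chain thus had ratios with overlapping intervals. The peptide exchange genes differed from each other: H2-DMb1 stood at 59.1 and 0.610 CPM (ratio 96.9; 48.6 to 219), and H2-DMa at 125 and 7.86 CPM (ratio 15.8; 12.5 to 20.2). Ciita gave 9 UMIs in macrophage-like cells (6.40 CPM) and 1 UMI in the other somatic-like cells (ratio 94.5; 13.1 to 4144). Of 14858 genes with at least 20 UMIs over both sides, 11.9% were at least 2-fold higher in macrophage-like cells, and these included all 6 members that reached this count. Their places in that order ran from 53 for H2-Eb1 to 408 for H2-DMa. H2-DMb1 reached the count only through the macrophage-like cells, with 83 UMIs against 9, so its place among the 6 is no support.

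Class II RNA was spread very unevenly over the macrophage-like cells. To compare cells at equal depth, each was thinned to 1000 UMIs. At that depth 260 of the 449 cells had no class II UMI, 48 had 1, 13 had 2 to 4, 17 had 5 to 9, 23 had 10 to 19, 63 had 20 to 39 and 25 had 40 or more. The median was 0 and the highest cell had 75, which makes a distribution with a large mass at 0 and a long spread above it. The ranges counted differ in width, so their counts do not by themselves show a second peak. At least 5 class II UMIs were found in 128 cells (28.5%; exact Clopper-Pearson 95% interval 24.4% to 32.9%), and in 137 (30.5%) before thinning. Germ-cell-like cells, which serve as background, gave 0 of 4397 cells at this mark after thinning, under 0.0682% when 3 cells are taken as the limit. Before thinning 9 cells reached it, in a class with a median depth of 5398 UMIs against 3050 in macrophage-like cells. The 45 cells with the most, 10% of the class, held 53.6% of the thinned class II UMIs. The variance of the thinned sum was 25.9 times its mean, a ratio that is 1 for Poisson counts of equal mean. At 2000 UMIs a cell, which leaves out the shallower cells, the share with at least 5 was 17.1% and the highest 10% of cells held 80.8%.

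By gene, the thinned share of macrophage-like cells with at least 1 UMI was 33.0% for Cd74 (28.6% to 37.5%), 28.7% for H2-Eb1 (24.6% to 33.2%), 28.1% for H2-Aa (24.0% to 32.5%) and 27.8% for H2-Ab1 (23.7% to 32.2%). For H2-DMa it was 12.9% (9.96% to 16.4%), for H2-DMb1 6.68% (4.55% to 9.40%) and for Ciita 3 of 449 cells. The 4 abundant genes therefore marked similar shares of cells. Across the 449 cells, Pearson correlations of log counts among these 4 ran from 0.903 for H2-Aa with H2-Ab1 to 0.946 for H2-Aa with H2-Eb1. Those with H2-DMa ran only from 0.208 to 0.231 for the same 4 genes, on its few counts. Within the 126 class II-high cells described below, correlations among the 4 abundant genes ran from 0.619 to 0.815. Within the other 323 cells they ran from 0.620 to 0.828, so they were lower in each group than over all 449 cells. The cells share 1 library, and these values are descriptions.

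Macrophage-like cells fell into 3 sub-clusters when clustered on genes that excluded the members and lists. A sub-cluster of 126 cells (28.1% of the 449) held 26872 CPM of class II RNA (26224 to 27532), or 2.69% of its UMIs, and is called class II-high from that level. The other pair of sub-clusters had 496 CPM (426 to 575; 112 cells) and 459 CPM (414 to 508; 211 cells), with overlapping intervals, and are described together as the other 323 macrophage-like cells at 471 CPM. The highest stood 58.5-fold above the lowest, and 57.1-fold (52.3 to 62.4) above both together; under 4 other settings the first of these lay between 118-fold and 145-fold. The class II-high cells were also shallower, with a median of 1895 UMIs against 3502; at the equal depth of 1000 UMIs their median was 27 class II UMIs (range 0 to 75), while 254 of the other 323 cells had 0. Of the class II-high cells, 116 had at least 5 class II UMIs at that depth, and of the others 12.

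**Figure D2:**
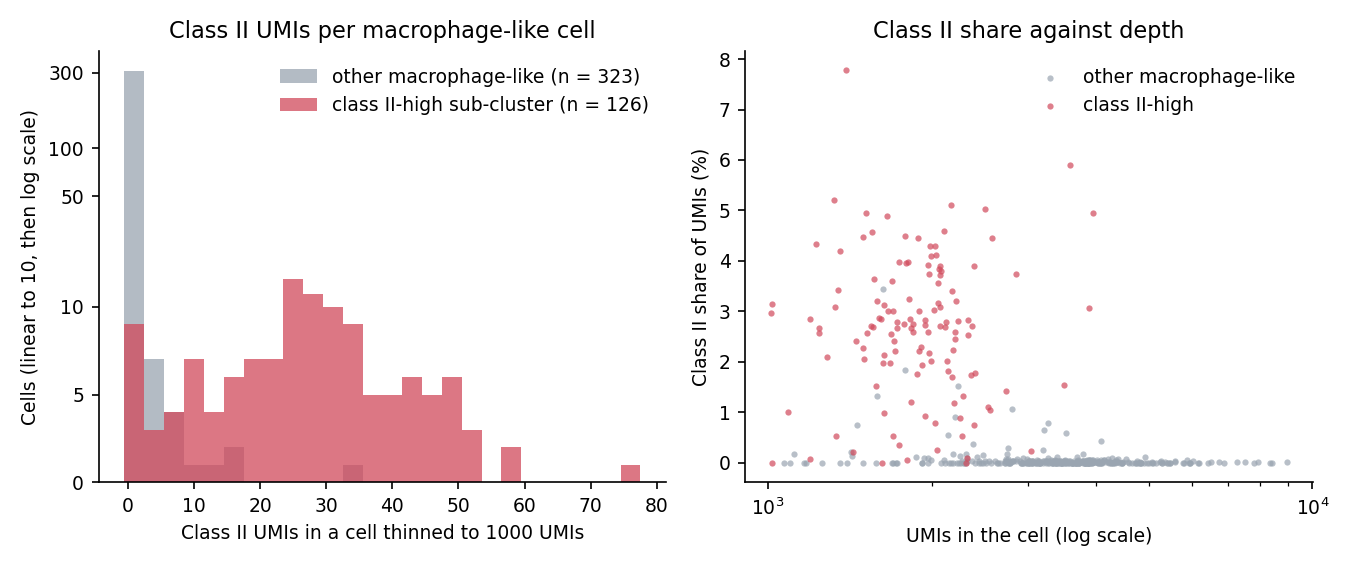
Left: number of macrophage-like cells by class II UMIs after thinning to 1000 UMIs a cell (vertical axis linear to 10, then log); right: class II percent of each cell's UMIs against its depth (log scale). Red marks the 126 cells of the class II-high sub-cluster and grey the other 323; the red cells spread from 0 to 75 thinned UMIs around a median of 27, and most grey cells are at 0.

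The members did not differ alike between these cells. H2-Aa stood at 6442 CPM in class II-high cells and 72.3 CPM in the others (ratio 89.2; 71.6 to 112). The ratio was 88.3 for H2-Eb1 (71.2 to 111), 78.8 for H2-Ab1 (60.0 to 105) and 63.6 for Cd74 (54.5 to 74.6). H2-DMb1 stood at 169 and 36.1 CPM, a ratio of 4.67 (2.96 to 7.37), and H2-DMa at 297 and 88.6 CPM, a ratio of 3.35 (2.44 to 4.57). The intervals of the H2-DM pair lay wholly below those of the surface chains. Ciita gave 8 UMIs in class II-high cells and 1 in the others (ratio 38.3; 5.14 to 1700). Of 7668 genes with at least 20 UMIs over both sides, 6.79% stood at least 2-fold higher in class II-high cells, and 19.1% stood 2-fold or more lower, genes at 0 there included. All 6 members with that count were among the higher ones, at places 3, 4, 5 and 7 for the surface chains and Cd74, 81 for H2-DMb1 and 130 for H2-DMa.

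Put per H2-Aa UMI, the same data show a different make-up of class II RNA. Class II-high cells had 0.579 H2-Ab1 (0.533 to 0.628), 1.04 H2-Eb1 (0.968 to 1.11), 1.48 Cd74 (1.39 to 1.58) and 0.0460 H2-DMa UMIs (0.0358 to 0.0583) for each H2-Aa UMI. The other macrophage-like cells had 0.655 H2-Ab1 (0.457 to 0.931), 1.05 H2-Eb1 (0.768 to 1.43) and 2.07 Cd74 (1.59 to 2.72) but 1.23 H2-DMa (0.910 to 1.66). Thus the H2-Ab1 and H2-Eb1 ratios overlapped between the groups, Cd74 was somewhat higher per H2-Aa and H2-DMa much higher in the other cells. Of the 547 class II UMIs in those 323 cells, 346 came from the 18 cells with at least 5 each. The remaining 305 cells had 181 CPM (157 to 207), of which H2-DMa, at 76.4 CPM, was the largest part and H2-Aa was 12.6 CPM. Over all 323 cells, the 6 genes other than Ciita had ratios to germ-cell-like cells between 4.95 for H2-Ab1 and 37.5 for H2-DMb1, with lower bounds above 1. Cells of at least 5 class II UMIs were then left out on both sides, a cut on the class II sum itself. H2-Ab1 then stood at 8.09 CPM (3.70 to 15.4) in the 305 cells and 9.07 CPM (8.06 to 10.2) in germ-cell-like cells. Of the 291 H2-Ab1 UMIs of the latter, 243 came from early-prophase-like cells, at 17.9 CPM (15.7 to 20.3). Spermatogonium-like cells had 2.92 CPM (1.59 to 4.89), those without a stage 2.65 CPM (1.62 to 4.09) and pachytene-like cells 2.27 CPM (1.24 to 3.81). The 305 cells stood above these last classes with overlapping intervals, so any H2-Ab1 excess depended on the class compared. H2-Aa stood at 12.6 CPM (6.88 to 21.1) in the 305 cells and 2.34 CPM (1.84 to 2.93) in germ-cell-like cells. H2-DMa stood at 76.4 CPM (61.0 to 94.5) and 8.86 CPM (7.86 to 9.95).

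Genes of the wider presentation pathway were described from lists that took no part in the clustering. Over all 7668 genes, 6.79% were at least 2-fold higher in class II-high cells and 19.1% lower. The list counts below are to be read beside these shares. A gene that reached the UMI mark for measured genes only through its higher side is no support in such a count. Endosomal processing genes, which cut antigen and the invariant chain, were at least 2-fold lower for 4 of 10 measured genes and higher for none, with a median ratio of 0.838 beside 0.871 over all 7668 genes. Ctsd, an aspartyl protease, stood at 37.1 CPM in class II-high cells and 971 CPM in the others, 26.2-fold lower (13.8 to 57.4), and Ctsb, a cysteine protease, at 272 and 2159 CPM, 7.94-fold lower. Lgmn and Lamp1 were the other 2. Ctss, the protease known for the last cuts of the invariant chain, stood at 1104 and 989 CPM (ratio 1.12; 0.973 to 1.28). Among regulators of class II turnover and CD74 partners, 2 of 6 were at least 2-fold higher and, with a 0 set to 3 UMIs, 1 was lower. Cd83, which protects surface class II from removal, stood at 465 and 105 CPM (ratio 4.44; 3.40 to 5.78), and Cd44, a CD74 co-receptor, at 61.8 and 24.9 CPM (ratio 2.48; 1.23 to 4.77). March8, a ubiquitin ligase that removes surface class II, gave 4 and 56 UMIs (2.92-fold lower; 1.08 to 11.1), and Cxcr4, a chemokine receptor, gave 0 and 21, which is at least 1.46-fold lower when the 0 is set to 3 UMIs. March1, its close relative in class II removal, stood at 53.5 and 90.3 CPM (1.69-fold lower; 0.945 to 3.27).

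Of the factors that act on class II promoters, none of the 7 measured differed by at least 2-fold. Spi1, the myeloid factor PU.1, stood at 371 and 369 CPM (ratio 1.005; 0.791 to 1.26), and Irf8 at 243 and 193 CPM (ratio 1.26; 0.930 to 1.69). Rfxap, an RFX subunit, stood at 94.7 and 49.0 CPM (ratio 1.93; 1.14 to 3.19), and Nfyb, an NF-Y subunit, gave 4 and 29 UMIs (ratio 0.660; 0.169 to 1.88). Rfx5 and Rfxank were too sparse to describe, with 12 and 8 UMIs in all macrophage-like cells. Of the interferon gamma response genes, 1 of 7 was at least 2-fold higher, beside 6.79% of all 7668 genes. That was Cxcl10, a chemokine, with 18 and 2 UMIs (ratio 43.1; 10.3 to 383). It reached the mark of 20 UMIs only through the class II-high cells, so its count among the measured genes is no support. Ifngr1, a receptor chain, had a ratio of 1.23 (0.944 to 1.58) and Jak2, the kinase on the other chain, 0.532 (0.138 to 1.48), and Ifng itself gave no UMI in macrophage-like cells.

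Class I presentation genes were at least 2-fold higher for 2 of 13 measured genes and lower for none, beside 6.79% and 19.1% of all 7668 genes. The median ratio of the list was 1.03. B2m, the class I light chain, stood at 1026 and 1277 CPM (ratio 0.803; 0.6997 to 0.919). The 2 were H2-Q7, a non-classical class I gene with near-identical relatives, with 15 and 19 UMIs (ratio 3.78; 1.79 to 7.85), and Tap1, a peptide transporter, with 10 and 22 UMIs (ratio 2.18; 0.920 to 4.79). Of 2 measured costimulation genes, 1 was at least 2-fold lower. Cd86, a ligand of CD28, stood at 371 and 292 CPM (ratio 1.27; 0.993 to 1.60), and Cd40 gave 2 and 27 UMIs (2.82-fold lower; 0.708 to 24.5). The other class II chains H2-Oa, H2-Ob, H2-DMb2 and H2-Eb2 together gave 33.0 CPM in class II-high cells and 4.30 CPM in the others, with 5 UMIs or fewer each in macrophage-like cells.

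**Figure D3:**
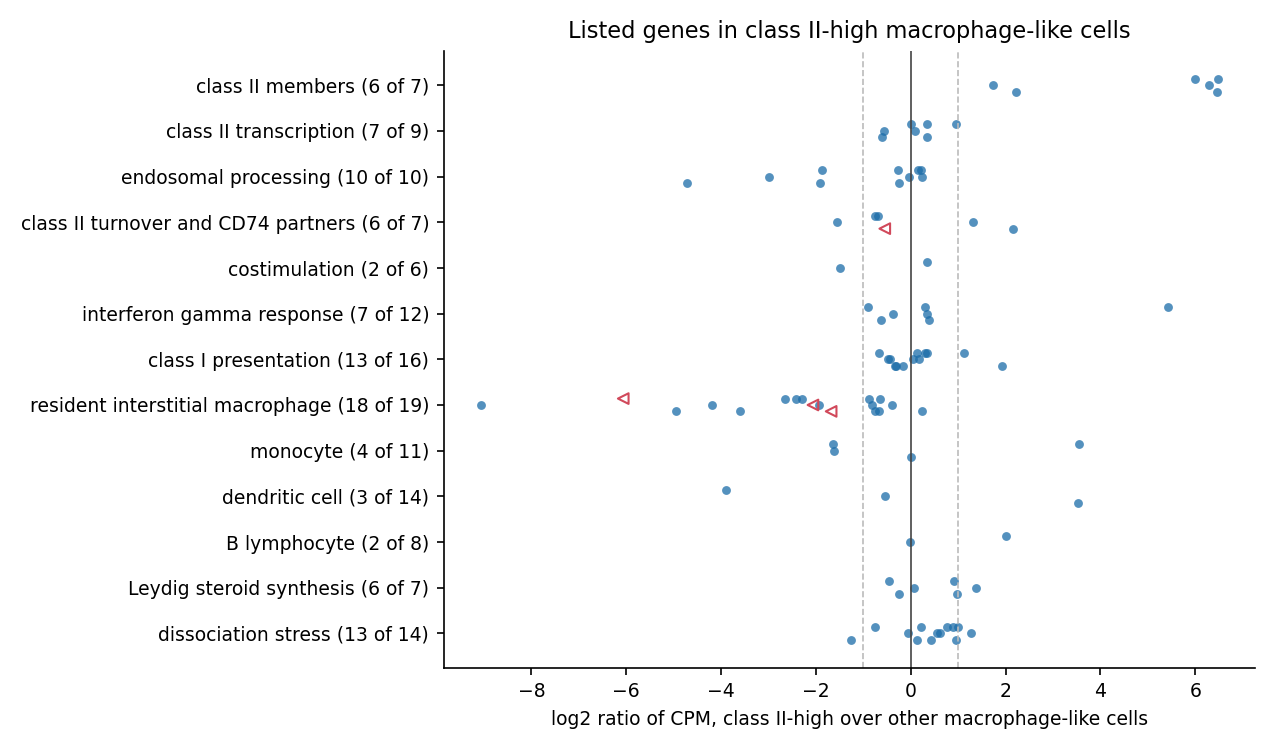
Each point is 1 listed gene with at least 20 UMIs over both groups, placed by the log2 ratio of its CPM in class II-high over other macrophage-like cells; the numbers beside a list are genes measured of genes listed. Dashed lines mark 2-fold, and open triangles are genes with 0 UMIs in class II-high cells drawn at 3 UMIs. H2-Aa, H2-Eb1, H2-Ab1 and Cd74 lie farthest right. H2-DMb1 and H2-DMa lie nearer to the 2-fold line, left of genes of other lists such as Cxcl10, Ccr2 and Mgl2. Of 18 resident macrophage genes, 11 lie left of the 2-fold line.

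The class II-high cells had lower levels of the genes known from resident interstitial macrophages of the testis. Of 18 measured genes in that list, 11 were at least 2-fold lower and none higher, beside 19.1% and 6.79% of all 7668 genes. Of the 11, F13a1, Folr2, Cbr2, Stab1, Cd163, Timd4 and Lyve1 reached the UMI mark for measured genes only through the other macrophage-like cells. Their place in that count is no support. Mrc1, Gas6, Maf and Pf4 reached the mark in class II-high cells alone (68, 26, 65 and 164 UMIs) and were still at least 2-fold lower there. The median ratio of the list was 0.196, or 0.2501 with genes at 0 set to 3 UMIs. F13a1, a coagulation factor subunit of tissue macrophages, gave 1 UMI in class II-high cells and 2577 in the others (538-fold lower; 96.5 to 21265). Folr2, a folate receptor, gave 0 and 961 UMIs, at least 66.9-fold lower when 3 UMIs are taken as the limit, and Timd4, a receptor for dying cells, 0 and 60, at least 4.18-fold lower. Mrc1, the mannose receptor, stood at 280 and 1490 CPM (5.32-fold lower; 4.17 to 6.88). Core macrophage genes were nearer to even: C1qa stood at 3299 and 5535 CPM (1.68-fold lower; 1.56 to 1.81) and Csf1r, the receptor for macrophage growth factor, at 400 and 639 CPM (1.60-fold lower; 1.29 to 1.998). Cx3cr1, the fractalkine receptor, stood at 589 and 585 CPM (ratio 1.01; 0.835 to 1.21).

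Markers of the other cells known for class II were looked for in the same sub-cluster. Of 11 dendritic cell markers 2 were at 0 (Ccr7 and Siglech), and all 11 summed to 140 CPM, against 42.2 CPM in the other macrophage-like cells and 49.9 CPM in germ-cell-like cells. Batf3, a transcription factor of cross-presenting dendritic cells, gave 14 UMIs in class II-high cells and 2 in the others (57.7 and 1.72 CPM; ratio 33.5; 7.70 to 304), the largest part of the 34 marker UMIs in class II-high cells. Fscn1, an actin-bundling protein of mature dendritic cells, gave 6 and 5 UMIs (ratio 5.75; 1.46 to 23.8). Flt3 gave 2 UMIs, Xcr1 2, Clec9a 1, Cd209a 3 and Zbtb46 4 in class II-high cells. Mgl2, a lectin of dendritic cells and of some macrophages, stood at 527 and 45.6 CPM (ratio 11.6; 8.33 to 16.2), and its neighbour in the lectin family Clec10a at 12.4 and 183 CPM (14.8-fold lower; 5.01 to 72.5). Of 9 monocyte markers 7 were at 0, among them Ly6c2, beside 5 at 0 in the other macrophage-like cells, where Ly6c2 gave 1 UMI. The 9 summed to 165 CPM (40 UMIs) in class II-high cells and 25.8 CPM in the others. Of those 40 UMIs, 39 were of Ccr2, the receptor of circulating monocytes, at 161 and 13.8 CPM (ratio 11.7; 6.37 to 22.4). Lower in class II-high cells were S100a4, at 177 and 546 CPM, and Itgam, at 28.8 and 90.3 CPM (3.13-fold lower; 1.47 to 7.98). The B lymphocyte genes Cd79a, Ms4a1 and Pax5 were at 0 in class II-high cells, where Ighm stood at 235 CPM, beside 238 CPM in the others. Cd79b, a chain of the B cell receptor complex, gave 11 and 13 UMIs (45.3 and 11.2 CPM; ratio 4.05; 1.64 to 9.80). The part of these cell types in the class II level was not tested. The 11 T or NK markers gave 1 UMI in all.

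Genes known from Leydig cells and from the response to dissociation were also compared between the groups, and some of them differed. The 7 Leydig steroid genes summed to 498 CPM in class II-high cells and 317 CPM in the others. Of 6 measured, 1 was at least 2-fold higher, beside 6.79% of all 7668 genes, and none was 2-fold lower. That was Hsd3b6, at 82.4 and 31.8 CPM (ratio 2.59; 1.42 to 4.58). Cyp17a1 stood at 206 and 105 CPM (ratio 1.96; 1.38 to 2.75), Cyp11a1 at 90.6 and 86.9 CPM (ratio 1.04; 0.626 to 1.67), Star at 20.6 and 28.4 CPM (ratio 0.726; 0.221 to 1.87) and Insl3 at 24.7 and 29.2 CPM (ratio 0.845; 0.290 to 2.04). Of 13 measured genes of the dissociation response, 2 were at least 2-fold higher and 1 lower, beside 6.79% and 19.1% of all 7668 genes. Fos stood at 2517 and 1252 CPM (ratio 2.01; 1.83 to 2.21) and Atf3 at 395 and 163 CPM (ratio 2.42; 1.87 to 3.11). Hspa1a stood at 33.0 and 79.1 CPM (2.40-fold lower; 1.17 to 5.73). The part of these in the differences above was not tested.

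The genes most like the class II sum over the 449 macrophage-like cells were found among 599 genes with at least 100 thinned UMIs. The 10 highest Pearson correlations of log counts were those of Cd52 (0.648), Cd14 (0.601), Rps24 (0.553), Ccl4 (0.511), Rps14 (0.496), Ccl3 (0.491), Rpl13 (0.475), Il1b (0.473), Rps9 (0.461) and Rpl32 (0.447). They comprise 2 surface proteins of leukocytes (Cd52 and the endotoxin co-receptor Cd14), 3 genes of secreted inflammatory proteins and 5 ribosomal protein genes. Within the 126 class II-high cells alone, the correlation was 0.173 for Cd52, 0.0557 for Cd14 and -0.123 for Ccl4, and 0.236 to 0.315 for the 5 ribosomal genes. The likeness of Cd52, Cd14 and Ccl4 therefore lay mostly between the sub-clusters, not within the high one. The lowest correlations were those of Apoe (-0.739), F13a1 (-0.621), Ftl1 (-0.603), Selenop (-0.571) and Ctsb (-0.570). Apoe, a lipid carrier, stood at 2628 CPM in class II-high and 17033 CPM in the other macrophage-like cells.

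The sub-clusters' leading genes were used to form them and only label them. They were Il1b, Phlda1, Cd72, Bcl2a1d and Scimp in class II-high cells. In the other pair of sub-clusters they were Nek4, Auts2, Nek1, Zfp422 and Kifap3, and Gpnmb, Tnfsf18, Gdf15, Fn1 and Plk2.

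Outside the macrophages the members did not keep the proportions of class II-high cells in every class. In Sertoli-like cells H2-DMa stood at 25.8 CPM (18.9 to 34.5; 46 UMIs), 6.26-fold (3.96 to 9.97) its 4.13 CPM in Leydig-like cells; 32.7% of 13015 genes were at least 2-fold higher in that comparison. H2-DMa made up 46.5% of the class II UMIs of Sertoli-like cells (36.4% to 56.8%), against 2.47% in macrophage-like cells. Among the latter it was 1.10% in class II-high cells and 18.8% (15.6% to 22.4%) in the others. It was 19.8% (14.3% to 26.3%) in Leydig-like and 38.7% (31.8% to 45.9%) in pachytene-like cells, so a large H2-DMa share was not particular to Sertoli-like cells. The opposite-strand gene Brd2 stood at 230 CPM in Sertoli-like and 111 CPM in Leydig-like cells, so it moved the same way as H2-DMa there. In class II-high cells Brd2 stood at 90.6 CPM, against 151 CPM in the other macrophage-like cells. Between those groups H2-DMa went the opposite way, at 297 and 88.6 CPM. Early-prophase-like cells had Brd2 at 277 CPM and H2-DMa at 9.95 CPM. The part of Brd2 in the H2-DMa count was not tested. In pachytene-like cells H2-DMa stood at 12.1 CPM (9.51 to 15.2), with Brd2 at 251 CPM.

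H2-Ab1 stood apart in germ-cell-like cells of early meiotic prophase. There it gave 245 UMIs in 234 of 2435 cells, with at most 3 in a cell, or 18.1 CPM (15.9 to 20.5), beside 40 UMIs of its partner H2-Aa (6.13 per H2-Aa UMI; 4.37 to 8.78). That ratio was 0.579 in class II-high cells, 0.692 (0.408 to 1.16) in Leydig-like cells and 0.783 (0.398 to 1.52) in pachytene-like cells. In early-prophase-like cells it was 3.75 when cells from 500 UMIs were kept and 3.77 with doublets kept. The H2-Ab1 level was 4.36-fold (2.76 to 7.26) that in spermatogonium-like cells (4.14 CPM) and 6.22-fold (3.85 to 10.7) that in pachytene-like cells (2.90 CPM). Of the genes compared, 18% and 29.8% were at least 2-fold higher in early-prophase-like cells in these comparisons. Against pachytene-like cells, which gave 18 UMIs, H2-Ab1 reached the mark of 20 UMIs only through the early-prophase-like cells. The 4 clusters of this class gave 23.9, 30.03, 11.7 and 7.46 CPM. The thinned share of early-prophase-like cells with an H2-Ab1 UMI was 1.52% (1.07% to 2.09%), at a median depth of 4631 UMIs. It was 0 of 374 in spermatogonium-like cells, under 0.802% when 3 cells are taken as the limit. In pachytene-like cells it was 0.280% (0.00709% to 1.55%). Thinned to 1000 UMIs, these shares are near the level of 1 UMI a cell and are given as a check on depth alone.

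**Figure D4:**
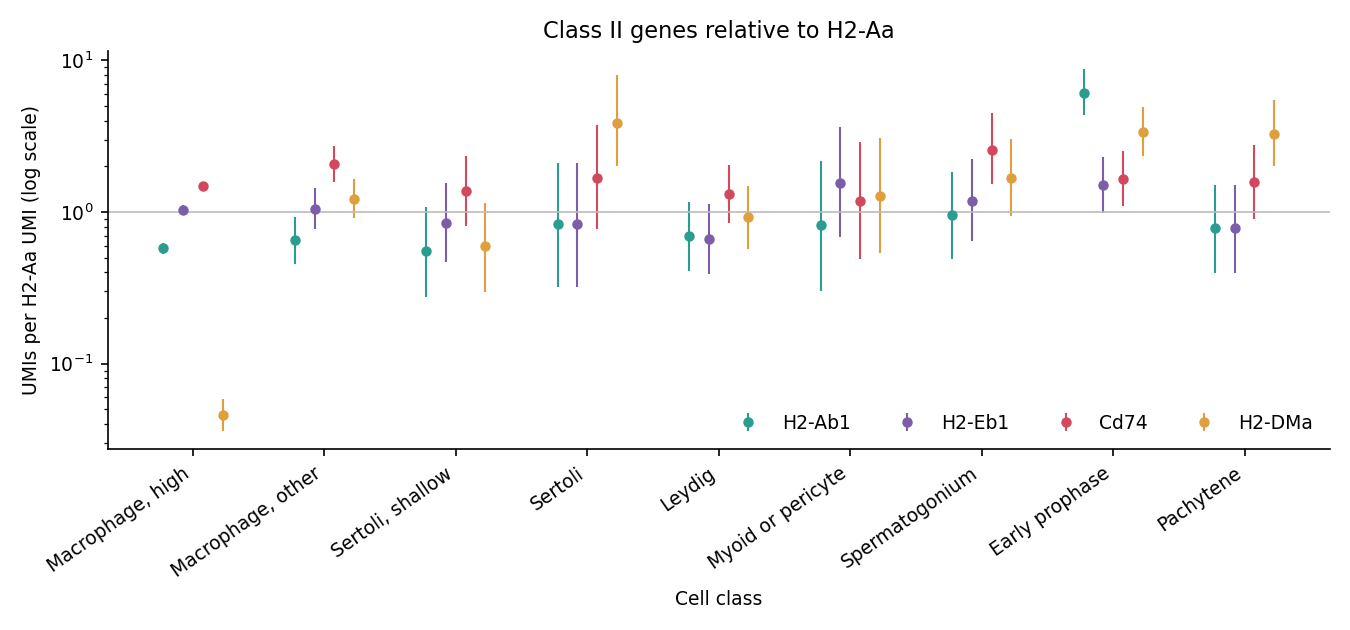
UMIs of H2-Ab1, H2-Eb1, Cd74 and H2-DMa for each H2-Aa UMI (log scale) by cell class, with exact conditional binomial 95% intervals that cover counting error only. H2-Ab1 lies at 6.13 in early-prophase-like cells and below 1 in the other classes drawn, and H2-DMa lies at 0.0460 in class II-high macrophage-like cells and at 3.83 in Sertoli-like cells.

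H2-DMb1 was found in another germ cell class. It gave 24 UMIs in 17 of 357 pachytene-like cells, or 3.87 CPM (2.48 to 5.76), and 6 UMIs in early-prophase-like cells (0.442 CPM). The ratio was 8.75 (3.49 to 26.2), where 18% of genes were at least 2-fold higher. H2-DMb1 reached the mark of 20 UMIs only through the pachytene-like cells, so that share is no support. Its near copy H2-DMb2 gave 4 UMIs in the same pachytene-like cells, 2 in class II-high cells and none in Leydig-like cells. Ciita gave 3 UMIs in all germ-cell-like cells, or 0.0931 CPM, and H2-Ob gave none in the germ-cell-like clusters. H2-Aa, H2-Eb1 and Cd74 in germ-cell-like cells stood at 3.57, 4.41 and 7.67 CPM, beside 6.37, 5.83 and 9.01 CPM in somatic-like cells other than macrophages.

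A few cells of other classes carried many class II UMIs. Of 7422 non-immune cells, 16 had at least 5, and the highest, a Leydig-like cell, had 55. Of these 16, 10 also had a C1q UMI, against 15.3% of all non-immune cells, and 9 were germ-cell-like. Without the 16 cells the summed level of the other somatic-like cells was 27.0 CPM (24.4 to 29.8) and that of Leydig-like cells 13.4 CPM (11.1 to 16.1). The macrophage ratio to other somatic-like cells was then 186. Without them H2-Ab1 in early-prophase-like cells stood at 17.9 CPM (15.7 to 20.3) and H2-DMb1 in pachytene-like cells at 3.74 CPM (2.37 to 5.60).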

How the data were processed

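Single-cell 3' libraries of mouse testis were deposited for 4 groups of 1 library, and counts were analysed for the day 35 Znhit1 knockout. The authors deposited raw UMI counts for each gene and barcode, which the file headers credit to Cell Ranger 7.1.0. STAR and build mm10 are named in the submitters' processing notes. The calling of cells and the counted annotation are not given in the sources used here.

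Cell filters asked for 500 genes, 1000 UMIs and no more than 10% mitochondrial UMIs in a cell (8121 passed), and Scrublet in scanpy 1.11.5 removed 235 doublets (2.89%). Free RNA was not subtracted. Cells were clustered on 3000 variable genes, 30 principal components and Leiden resolution 1, without 1965 genes that included the members and lists. Immune clusters were pooled and clustered again before naming, and macrophage-like cells were then split at resolution 0.5. This step and the name of germ-cell-like cells without a stage were settled after the clusters were seen. The members and lists were chosen with earlier results of these data known.

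Levels are UMIs summed over a class per 1000000 of its UMIs (CPM), with exact Poisson intervals; shares have Clopper-Pearson and ratios conditional binomial 95% intervals. Only genes with at least 20 UMIs over both sides were counted for folds, and a count of 0 was set at 3 UMIs over the group for a bound. Named list genes were the highest in macrophage-like cells, plus up to 2 upward and 1 downward ratios of at least 1.5-fold between cells with the highest and lowest class II shares; the lowest cells were drawn from 173 cells tied at 0. F13a1, Folr2, Mrc1, Csf1r, Ctss, Irf8, Cd44, Cxcr4, March1, Cd40, Xcr1 and other genes named beyond this were chosen after their values were seen. Genes were placed with GENCODE vM21, which matched 32235 of 32285. The intervals' script was tested on simulated data. Alternatives covered the cell filters, doublets, clustering, thinning and averaging.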

Additional observations from a re-analysis of the deposited data

Results flagged for a closer look

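Among the 7420 barcodes that the cell filters and doublet calls left out, 8 had at least 5 class II UMIs and at least 1% of their UMIs from the 7 genes. They held 423 of the 1986 class II UMIs of these barcodes, and their median depth was 2140 UMIs. Of the 8, 5 had over 10% mitochondrial UMIs, 2 were called doublets and 1 had under 1000 UMIs. Among the 7886 cells used, 113 met the same mark, with a median depth of 1895 UMIs. Over all left-out barcodes the class II level was 84.2 CPM, against 179 CPM in the cells used.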

How the results depend on the processing

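The class II level, the ratios, the shares and the part held by the 10% of cells with the most class II UMIs were recomputed under the alternatives that bear on each, and no direction changed in those run. Of 54 recomputed values of single members, 38 stayed within the interval of the value reported. The level of 5032 CPM became 4438 with cells from 200 genes and 500 UMIs, 4390 with doublets kept and 7987 as a mean over cells. The ratio of 147 to other somatic-like cells became 133 with cells from 500 UMIs and 172 with up to 20% mitochondrial UMIs. Thinned to 2000 UMIs, which leaves out shallower cells and so more of the class II-high ones (median 1895), 17.1% of cells had at least 5 class II UMIs, and the highest 10% of cells held 80.8%. The highest sub-cluster, 58.5-fold above the lowest, stood 131-fold above it with cells from 500 UMIs, 118-fold with 20% mitochondrial UMIs, 145-fold with members and listed genes kept in the clustering and 127-fold at sub-cluster resolution 1. The share of macrophage-like cells in the highest sub-cluster lay between 25.8% and 29.5%. 2 settings were added after the data were seen: without the second clustering of immune cells the level was 440 CPM, the ratio 12.9, the share with at least 5 class II UMIs 3.44% and the part of the highest 10% of cells 79.0%; without the 16 non-immune cells of at least 5 class II UMIs the ratio was 186. H2-Ab1 per H2-Aa UMI in early-prophase-like cells, 6.13, fell to 3.75 with cells from 500 UMIs and 3.77 with doublets kept. Counts of 1 to 20 UMIs (Ciita, H2-Ob, most dendritic cell markers) limit what could be seen at this depth. No paired analysis was possible because each group has 1 library.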
